A study of Mus musculus with 30 samples.

Results

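The 10 genes described here encode the glucose transporter Slc2a1 and 9 enzymes of glycolysis, from hexokinase Hk2 to lactate dehydrogenase Ldha. They were found by matching the Ensembl identifiers of the count matrix, with the version suffix removed, to the 10 mouse symbols. The matrix held 57186 identifiers, of which 37017 had at least 1 count. The 10 symbols matched 11 of those identifiers, because Aldoa had a second one (ENSMUSG00000114515) with 0.756 to 3.01 CPM (read counts scaled to a common library total). Values for Aldoa are from ENSMUSG00000030695. The 10 members passed the filter on low counts in every comparison.

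RNA was sequenced from 2 mouse lines exposed to cycloheximide, an inhibitor of translation elongation. NIH/3T3 is a fibroblast line that was grown in DMEM with serum. CGR8 is an embryonic stem cell line, and its medium was N2B27 with the 2i inhibitors and LIF. At all times both lines carried the genotype given as ROSA26 SLT knock-in, so no group lacks it, and the labels do not say what SLT is or how many clones were used. The dose of cycloheximide was 0.1 µg/mL. Libraries were made at 0, 1, 2, 5 and 48 h, with replicates A, B and C at each time in each line. The 0 h libraries are called untreated here, although their labels name the same agent and dose. The labels do not say whether replicates were separate cultures, so p-values measure only the spread between these libraries, which may be technical.

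Glycolysis turns glucose into pyruvate in the cytosol and yields ATP and NADH. Cells take up glucose through facilitative transporters, trap it as glucose 6-phosphate by hexokinase, and commit it to glycolysis at phosphofructokinase. The lower steps, from aldolase to pyruvate kinase, handle 3-carbon sugars and return ATP, and lactate dehydrogenase reoxidises NADH. Several steps are catalysed by isoenzymes from different genes, and cultured stem cells and fibroblasts both rely strongly on the pathway. Many of these genes are known targets of the hypoxia-inducible factors (HIF), whose binding sites in DNA are known to centre on the letters ACGTG or close variants.

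Promoter sequences are shown for Hk2, Pfkl, Pfkp and Pgk1, the 4 members whose response to cycloheximide was called different between the lines by edgeR. The call for Hk2 ended under some settings, given below. They are the bases just upstream of the transcription start, 5′ to 3′ on the strand of the gene, from RefSeq on GRCm38.p6. Capitals mark ACGTG on either strand (CACGT where it lies on the other strand). A promoter was listed for all 10 members, with 16 windows in all.
Hk2, chr6:82774455-82774704, minus strand: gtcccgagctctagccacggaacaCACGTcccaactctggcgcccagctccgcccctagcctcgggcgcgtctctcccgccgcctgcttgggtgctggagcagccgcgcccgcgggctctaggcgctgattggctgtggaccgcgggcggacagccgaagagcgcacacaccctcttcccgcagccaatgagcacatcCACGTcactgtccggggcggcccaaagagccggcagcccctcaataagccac
Pfkl, chr10:78009808-78010057, minus strand: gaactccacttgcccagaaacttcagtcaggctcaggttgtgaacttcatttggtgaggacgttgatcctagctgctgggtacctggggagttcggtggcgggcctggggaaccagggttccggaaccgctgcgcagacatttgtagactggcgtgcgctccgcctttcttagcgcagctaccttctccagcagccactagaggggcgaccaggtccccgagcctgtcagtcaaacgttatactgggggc
Pfkp, chr13:6648778-6649021, minus strand: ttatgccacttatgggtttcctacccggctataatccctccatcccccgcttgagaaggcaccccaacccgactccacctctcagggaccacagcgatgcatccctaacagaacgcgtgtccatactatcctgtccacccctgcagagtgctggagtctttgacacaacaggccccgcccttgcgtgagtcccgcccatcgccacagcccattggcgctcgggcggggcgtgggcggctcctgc
Pgk1, chrX:106186850-106187099, plus strand: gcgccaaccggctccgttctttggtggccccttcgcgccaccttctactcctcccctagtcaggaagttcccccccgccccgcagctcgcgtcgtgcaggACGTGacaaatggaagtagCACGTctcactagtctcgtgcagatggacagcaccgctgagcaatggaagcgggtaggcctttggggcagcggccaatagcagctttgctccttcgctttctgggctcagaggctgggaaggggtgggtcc

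ACGTG was found 2 times in the Hk2 window and 2 times in that of Pgk1, and not in those of Pfkl and Pfkp. Over the 250 bases upstream of each listed start, it was present in 7 of the 16 windows of the members, for 6 of the 10 genes, and in 16.6% of all 32851 windows of that length. CACGTG, the E-box, which contains ACGTG, was present in 1 of the 16 windows and in 6.02% of all windows. GGGCGG, the core of the GC box bound by Sp1-type factors, was present in 10 of the 16 windows, for 8 of the 10 genes, and in 32.7% of all windows. It lay 3 times in the Hk2 window, 4 times in that of Pfkp and 1 time in that of Pgk1, and was not in that of Pfkl. Both strands were searched, and a match describes the letters alone. Close variants of ACGTG were not searched, and GCGTG, such a variant, can be read in the printed windows of both Pfkl and Pfkp. A window without ACGTG is therefore not shown to lack a HIF site.

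The 30 libraries, 3 for each of 10 groups, held 18.2 to 30.5 M counts (mega-counts). Most cell type markers followed the labels of the lines, with exceptions. Zfp42, Tdgf1, Dppa5a, Esrrb, Nanog and Pou5f1, which mark stem cells, were all at or under 0.383 CPM in NIH/3T3 and at or above 376 CPM in CGR8. Of the fibroblast markers, Col1a1, Col1a2, Col3a1 and Lox were high in NIH/3T3, whereas Thy1 and Postn did not exceed 1.01 CPM there, and Thy1 was higher in CGR8, at 1.47 to 4.34 CPM. Gata4, a marker of primitive endoderm, had 11.6 to 21.1 CPM in NIH/3T3 and 0.621 to 3.69 CPM in CGR8, while Gata6, Sox17 and Foxa2 were at 0 in all NIH/3T3 libraries. Levels are CPM with library totals scaled by TMM factors, so they are shares of the measured mRNA: a loss of mRNA common to all genes would not be seen, and fewer cells cannot be told apart from less RNA per cell.

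The share of counts in transcripts shorter than 2 kb differed between libraries, from 25.9% to 44.1%, and moved with time. It was 29.6 to 31.3% in untreated NIH/3T3, 33.8 to 35.4% at 5 h and 25.9 to 26.4% at 48 h. In CGR8 it was 28.6 to 32.8% untreated, 35.5 to 44.1% at 5 h and 27.6 to 30.5% at 48 h. Aldoa, Gapdh, Pgk1 and Ldha have transcripts under 2 kb. Replicate C of NIH/3T3 at 1 h and replicates B of CGR8 at 0 h and at 2 h stood apart from their replicates in this share, and results were also computed without these 3. A fit with the trend on transcript length removed was added too. The part of transcript length in the results was not tested beyond this. For the members, values of this fit are given below where they end or make a call, or move a called change by more than 1.5 times. For genes of the other lists they are not given, so the text does not show how far those changes depend on length.

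**Figure D1:**
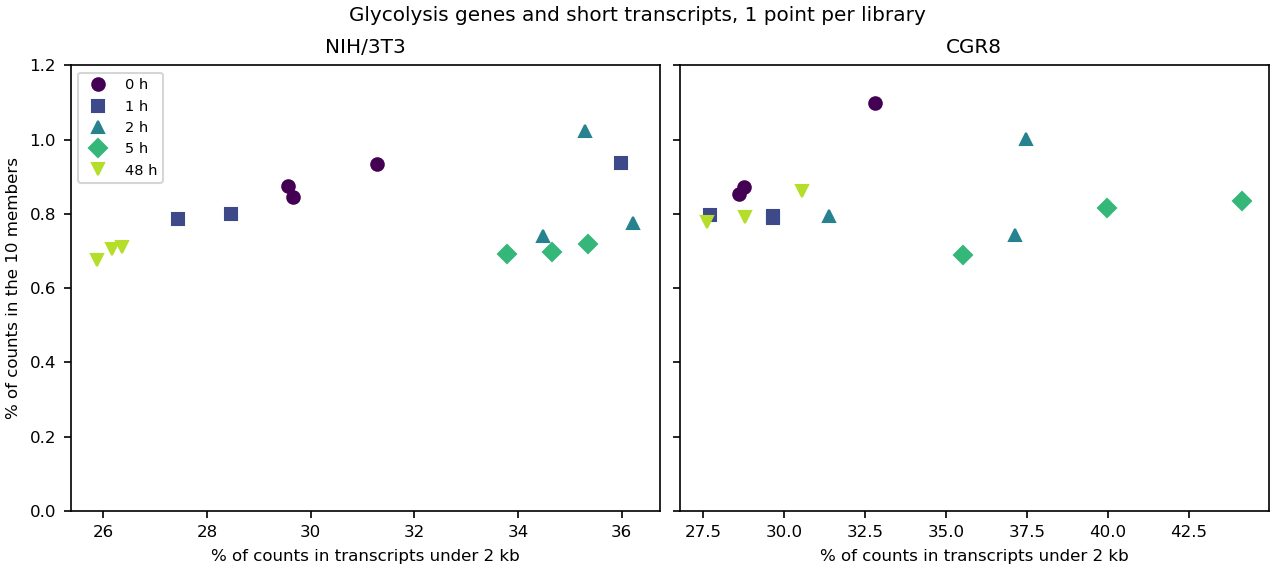
Share of counts in the 10 members (y axis, % of all counts) against the share in transcripts under 2 kb (x axis, %), 1 point per library, with the time of cycloheximide shown by symbol and colour; NIH/3T3 is on the left and CGR8 on the right. In NIH/3T3 the 48 h libraries lie at 25.9 to 26.4% on the x axis and the 5 h libraries at 33.8 to 35.4%, and both groups lie near 0.70% on the y axis.

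The 10 members together took 0.885% ± 0.0458 (SD, n = 3) of all counts in untreated NIH/3T3. At 1 h and 2 h this share was 0.841% ± 0.0842 and 0.846% ± 0.154, and at 5 h and 48 h it was 0.702% ± 0.0139 and 0.697% ± 0.0179. All 6 libraries at 5 h and 48 h lay under the untreated ones. At 2 h replicate A stood high with 1.02%, against 0.740% in B and 0.776% in C. In CGR8 the share was 0.941% ± 0.137 untreated, 0.794% ± 0.00447 and 0.845% ± 0.137 at 1 h and 2 h, and 0.779% ± 0.0789 and 0.811% ± 0.0453 at 5 h and 48 h. The untreated value in CGR8 rests in part on replicate B, with 1.10%, against 0.871% in A and 0.852% in C, and the groups overlapped at 48 h.

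**Figure D2:**
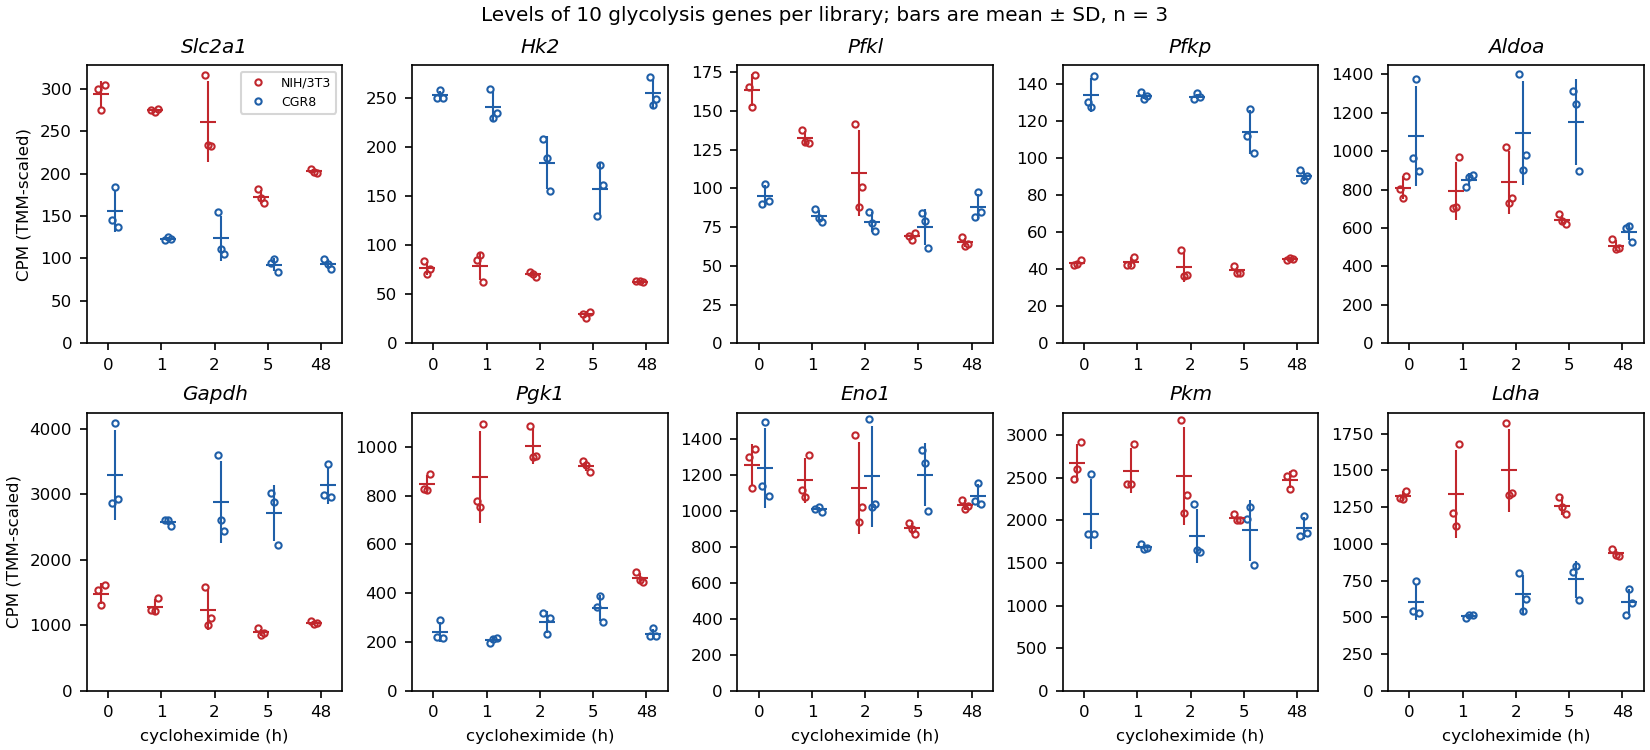
Level of each member (y axis, CPM scaled by TMM, linear from 0) at each time of cycloheximide (x axis, h, not to scale) in NIH/3T3 (red) and CGR8 (blue). Circles are libraries A, B and C, and bars are mean ± SD of 3. Hk2 is low at 5 h and higher again at 48 h in both lines, whereas Pfkl in NIH/3T3 stays near 65 to 69 CPM at both times.

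The untreated lines differed in the order of the members' levels. Levels were compared between genes only per kilobase of transcript, and counts of near-identical copies were left out. Copies held 23.5% of the counts of Gapdh and its copies in untreated NIH/3T3, and 3.73% in untreated CGR8. For Eno1 they held 25.4% and 17.5%. The places of Gapdh and Eno1 in the order therefore depend on how copies are counted. In untreated NIH/3T3 the order was Pkm (1099 ± 93.4 CPM per kb; SD, n = 3), Gapdh (1046 ± 110), Ldha (751 ± 17.6), Eno1 (621 ± 55.6), Aldoa (535 ± 39.4) and Pgk1 (464 ± 20.7), followed by Slc2a1 (89.98 ± 4.98), Pfkl (43.9 ± 2.74), Hk2 (13.9 ± 1.21) and Pfkp (10.4 ± 0.323). In untreated CGR8 it was Gapdh (2321 ± 480), Pkm (853 ± 168), Aldoa (714 ± 172), Eno1 (612 ± 110), Ldha (343 ± 68.6) and Pgk1 (133 ± 22.5), followed by Slc2a1 (47.7 ± 7.65), Hk2 (45.9 ± 0.789), Pfkp (32.4 ± 2.20) and Pfkl (25.4 ± 1.88). Pkm and Gapdh in NIH/3T3 differed by less than the larger of their SDs. In CGR8 the same held for Pkm and Aldoa, for Aldoa and Eno1, and for Slc2a1 and Hk2. Among the 10 members, Slc2a1 and the enzymes of the first steps were the lowest in both lines, and the enzymes from aldolase onward the highest. This order leaves out other isoenzymes, so it does not rank whole steps. In untreated CGR8, Slc2a1 made up 18.9% of the length-scaled counts of Slc2a1 and Slc2a3.

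Between the untreated lines, 9 of the 10 members were called different by edgeR at an adjusted p under 0.05, 4 higher and 5 lower in CGR8, where 79.1% of all 17549 genes tested were called. Higher in CGR8 were Hk2, with a log2 fold change of 1.72 ± 0.13 (SE), Pfkp with 1.63 ± 0.10, Gapdh with 1.15 ± 0.16 and Aldoa with 0.42 ± 0.17. Lower in CGR8 were Pgk1, with -1.80 ± 0.14, Ldha with -1.13 ± 0.16, Slc2a1 with -0.91 ± 0.12, Pfkl with -0.79 ± 0.12 and Pkm with -0.36 ± 0.15. The edgeR adjusted p was 4.1e-13 for Hk2 and 1.5e-12 for Pgk1, and 0.0255 for Aldoa and 0.0278 for Pkm. Eno1, at 1259.7 CPM in NIH/3T3 and 1240.3 CPM in CGR8, did not pass (edgeR adjusted p = 0.894). The calls for Aldoa and Pkm ended under some settings. For Aldoa the log2 fold change was 0.22 without untreated CGR8 replicate B (adjusted p = 0.225), and the call also ended without untreated NIH/3T3 replicate A (adjusted p = 0.0562) or B (adjusted p = 0.0917). For Pkm it was -0.28 with DESeq2 (adjusted p = 0.0907), and the call also ended without untreated NIH/3T3 replicate C (adjusted p = 0.0982) or untreated CGR8 replicate A (adjusted p = 0.123) or C (adjusted p = 0.142).

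Gapdh, which oxidises glyceraldehyde 3-phosphate, has many near-identical copies in the mouse genome, and reads could be split among them. The matrix held 146 such copies, of which 139 had a count, and they took 23.5% ± 0.234 (SD, n = 3) of the counts of Gapdh and its copies in untreated NIH/3T3 and 3.73% ± 0.401 in untreated CGR8. With the counts of the copies added, the log2 fold change of Gapdh between the untreated lines was 0.82 in place of 1.15. Eno1 has 6 copies. They took 25.4% ± 1.25 of the counts of Eno1 and its copies in untreated NIH/3T3 and 17.5% ± 0.662 in untreated CGR8. The near-equal levels of Eno1 in the untreated lines given above leave its copies out. Adding the copies changed the direction of no called member, which does not cover Eno1 between the untreated lines, where it was not called.

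The isoenzymes also differed between the untreated lines, given as shares of the length-scaled counts of their family, which are descriptions with no test. Of the glucose transporters Slc2a1 and Slc2a3, Slc2a1 made up nearly all in NIH/3T3 and 18.9% ± 1.59 (SD, n = 3) in CGR8, where Slc2a3 made up 81.1%. Of the hexokinases, Hk2 made up 26.4% ± 1.21 in NIH/3T3 and 65.3% ± 3.20 in CGR8, with Hk1 as the rest. Of the phosphofructokinases, Pfkl was the largest in NIH/3T3, with 53.5% ± 0.724, and Pfkp in CGR8, with 47.2% ± 3.01. Of the lactate dehydrogenases, Ldha made up 95.3% ± 0.364 in NIH/3T3 and 57.3% ± 0.436 in CGR8. The libraries of the lines did not overlap in any of these shares.

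At 1 h of cycloheximide 0 of the 10 members were called by edgeR in either line. In NIH/3T3, 0.732% of 13941 genes were called, 1 member had an unadjusted p under 0.05, and DESeq2 called 0 members. Limma's voom with sample weights called 4, where it called 20.7% of all genes. In CGR8, 0.27% of 15933 genes were called, 2 members had an unadjusted p under 0.05, and DESeq2 and voom each called 0 (voom called 6.55% of all genes).

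At 2 h 1 member was called in each line, an enzyme of the upper steps. In NIH/3T3 it was called lower, where 35% of all genes were called. It was Pfkl, the liver-type phosphofructokinase, with 165, 153 and 173 CPM untreated and 141, 88.1 and 101 CPM at 2 h in replicates A, B and C. All 3 treated libraries lay under the untreated ones, with replicate A the highest of them. Its log2 fold change was -0.54 ± 0.13 (SE; edgeR adjusted p = 0.00494). Without replicate A at 2 h, 5 members were called, and the share of all genes called in that fit is not given here. Gapdh was called lower too with the length trend removed, at -0.44 (adjusted p = 0.00761). In CGR8 the member was called lower too, where 19.9% of all genes were called. It was Hk2, with 251, 258 and 251 CPM untreated and 209, 189 and 156 CPM at 2 h, again without overlap. On the log2 scale the change was -0.48 ± 0.13 (edgeR adjusted p = 0.0163), and -0.21 with the length trend removed (adjusted p = 0.172). The call for Hk2 ended without untreated replicate A (adjusted p = 0.051) or 2 h replicate C (adjusted p = 0.0945). Without 2 h replicate A 2 members were called, and the share of all genes called in that fit is not given here. Gapdh was the member called with the length trend removed, at -0.40 (adjusted p = 0.0193).

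At 5 h Slc2a1, Hk2 and Pfkl, the transporter and enzymes of the upper steps, were called lower in both lines. Pfkp, also of the upper steps, was called lower in CGR8 alone, and Gapdh, Eno1 and Pkm, of the lower steps, in NIH/3T3 alone. In CGR8 the calls for Pfkl and Pfkp ended with the length trend removed (adjusted p = 0.273 and 0.95). In NIH/3T3 6 of the 10 members were called, all of them lower. There 51% of 13941 genes were called, and 27.1% were called lower. The median log2 fold change of the members was -0.40 in NIH/3T3, against -0.01 over all genes tested. In CGR8 4 members were called lower and 1 higher, where 52.1% of 15933 genes were called and 27.2% were called lower. The members' median was -0.24 in CGR8, against -0.01 over all genes tested, and the latter was -0.12 with library size alone as the scale. Without untreated CGR8 replicate C the count in CGR8 was 3, and the share of all genes called in that fit is not given here.

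**Figure D3:**
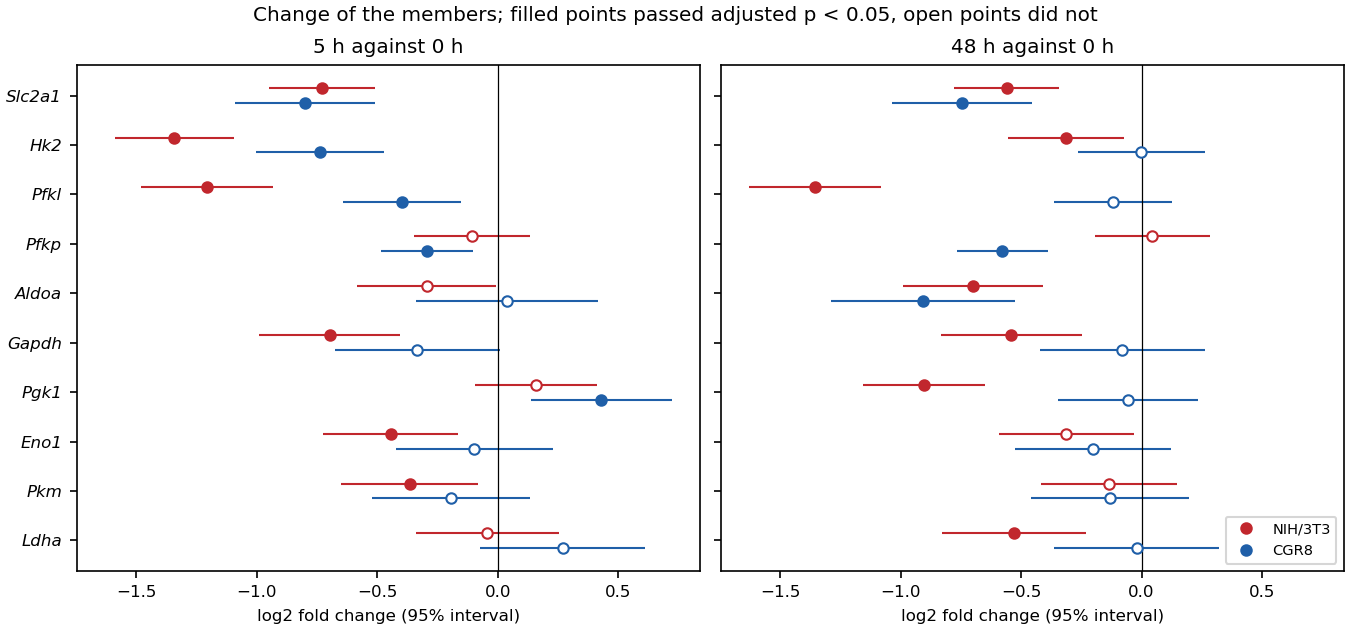
Log2 fold change of each member (x axis) against untreated libraries of the same line at 5 h (left) and 48 h (right), with 95% intervals from edgeR; NIH/3T3 is red and CGR8 blue, and filled points passed an adjusted p of 0.05. The points of the lines lie farthest apart for Pfkl, at 0.90 log2 units at 5 h and 1.22 at 48 h.

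Slc2a1, the transporter GLUT1 that takes up glucose at the basal rate, had 300.4, 275 and 305 CPM in the untreated NIH/3T3 replicates. It had 182, 171 and 166 CPM at 5 h and 206, 202 and 201 CPM at 48 h. The untreated libraries lay above all treated ones at both times. The log2 fold change was -0.73 ± 0.10 (SE) at 5 h (edgeR adjusted p = 3.0e-05) and -0.56 ± 0.10 at 48 h (edgeR adjusted p = 0.000286). In CGR8, Slc2a1 had 146, 184 and 137 CPM untreated, 94.5, 99.8 and 83.9 CPM at 5 h, and 99.4, 93.8 and 87.4 CPM at 48 h. There too no treated library at these times reached an untreated one. Its log2 fold change was -0.80 ± 0.14 at 5 h (edgeR adjusted p = 0.000177) and -0.75 ± 0.14 at 48 h (edgeR adjusted p = 0.000735). The difference between the lines in the change of Slc2a1 was 0.02 at 5 h, with a 95% interval from -0.34 to 0.38 (edgeR adjusted p = 1.0), and -0.20 at 48 h, from -0.56 to 0.16 (edgeR adjusted p = 0.472).

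Hk2, a hexokinase that binds the outer mitochondrial membrane, fell at 5 h and was higher at 48 h than at 5 h in both lines. In NIH/3T3 it had 83.8, 70.5 and 75.9 CPM untreated, 30.2, 26.1 and 32.3 CPM at 5 h, and 63.2, 63.2 and 62.7 CPM at 48 h. The 3 groups did not overlap. On the log2 scale the change was -1.34 ± 0.12 (SE) at 5 h (edgeR adjusted p = 3.2e-07) and -0.31 ± 0.11 at 48 h (edgeR adjusted p = 0.0295). The call at 48 h ended with library size alone (adjusted p = 0.123) and without any 1 of 5 libraries, untreated A or C or 48 h A, B or C (adjusted p from 0.0518 to 0.122), and the value was -0.49 with the length trend removed. From 5 h to 48 h Hk2 rose by 1.03 ± 0.12 on the log2 scale (edgeR adjusted p = 1.2e-06), and by 0.66 with the length trend removed.

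In CGR8, Hk2 had 130, 182 and 161 CPM at 5 h and 272, 244 and 249.8 CPM at 48 h, beside the 251 to 258 CPM of the untreated libraries. The 5 h libraries lay under all others of these 3 times, and the 48 h libraries lay on both sides of the untreated ones. The log2 fold change at 5 h was -0.74 ± 0.13 (edgeR adjusted p = 0.000172), or -0.32 with the length trend removed. At 48 h Hk2 did not pass against untreated libraries (edgeR adjusted p = 0.996). From 5 h to 48 h it rose by 0.74 ± 0.13 (edgeR adjusted p = 0.00013), or by 0.25 with the length trend removed, which ended the call (adjusted p = 0.0561).

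Pfkl fell by more in NIH/3T3 than in CGR8 at both times. In NIH/3T3 the untreated 153 to 173 CPM stood against 69.4, 67.0 and 71.3 CPM at 5 h and 68.5, 62.9 and 64.4 CPM at 48 h. The untreated libraries lay far above all treated ones at these times. Its log2 fold change was -1.21 ± 0.13 (SE) at 5 h (edgeR adjusted p = 2.2e-06) and -1.36 ± 0.13 at 48 h (edgeR adjusted p = 4.7e-07). In CGR8, Pfkl had 89.96, 103 and 91.8 CPM untreated, 83.9, 79.0 and 61.8 CPM at 5 h, and 81.4, 97.8 and 84.9 CPM at 48 h. The untreated libraries did not overlap with those at 5 h but did with those at 48 h. On the log2 scale the change was -0.40 ± 0.12 at 5 h (edgeR adjusted p = 0.00881), or -0.16 with the length trend removed, which ended the call (adjusted p = 0.273), and at 48 h Pfkl did not pass (edgeR adjusted p = 0.477).

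Pfkp, the platelet-type phosphofructokinase, fell in CGR8 and was not called in NIH/3T3, and the difference between the lines passed at 48 h. In CGR8 it had 130, 127 and 145 CPM untreated, 112, 126 and 103 CPM at 5 h, and 93.4, 88.1 and 90.2 CPM at 48 h. The 3 groups did not overlap, though replicate B at 5 h lay close to the lowest untreated library. The log2 fold change was -0.29 ± 0.09 (SE) at 5 h (edgeR adjusted p = 0.0119) and -0.58 ± 0.09 at 48 h (edgeR adjusted p = 0.000184). With the length trend removed the change at 5 h was -0.01 and was not called (adjusted p = 0.95), and without untreated replicate C (adjusted p = 0.0671) or 5 h replicate C (adjusted p = 0.051) it was not called either. In NIH/3T3, Pfkp ranged from 36.1 to 50.4 CPM over all times and did not pass at 5 h (edgeR adjusted p = 0.45) or 48 h (edgeR adjusted p = 0.761).

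Aldoa, which splits fructose 1,6-bisphosphate, was called lower at 48 h in both lines. In NIH/3T3 it had 801, 754 and 872 CPM untreated, 672, 637 and 622 CPM at 5 h, and 541, 488 and 496 CPM at 48 h. The 3 groups did not overlap. At 5 h it did not pass (edgeR adjusted p = 0.0819), but it was called lower with the length trend removed, at -0.42 (adjusted p = 0.00131), with library size alone (adjusted p = 0.0464), with voom (adjusted p = 9.1e-05) and without the libraries apart in short transcripts (adjusted p = 0.0246). At 48 h the log2 fold change was -0.70 ± 0.14 (SE; edgeR adjusted p = 0.00049), or -0.46 with the length trend removed. In CGR8 it had 966, 1377 and 895 CPM untreated, 1314, 1246 and 898 CPM at 5 h, and 599.7, 609 and 529.7 CPM at 48 h. The 48 h libraries were the lowest, whereas those at 5 h overlapped with the untreated ones. At 48 h the log2 fold change in CGR8 was -0.91 ± 0.18 (edgeR adjusted p = 0.00135), or -0.69 without the libraries apart in short transcripts.

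Gapdh fell in NIH/3T3, and in CGR8 it did not pass. In NIH/3T3 it had 1533, 1312 and 1612 CPM untreated, 953, 852 and 877 CPM at 5 h, and 1073, 1021 and 1031 CPM at 48 h. No treated library at these times reached an untreated one. Its log2 fold change was -0.70 ± 0.14 (SE) at 5 h (edgeR adjusted p = 0.000559) and -0.54 ± 0.14 at 48 h (edgeR adjusted p = 0.00375), the latter -0.30 with the length trend removed. In CGR8 it had 2870.2, 4082 and 2934 CPM untreated and 3027, 2887 and 2233 CPM at 5 h, with overlap between the groups. Gapdh did not pass there at 5 h (edgeR adjusted p = 0.0949) or at 48 h (edgeR adjusted p = 0.753), and the difference between the lines did not pass either (edgeR adjusted p = 0.185 at 5 h and 0.163 at 48 h). Without the libraries apart in short transcripts the difference at 48 h was 0.67 and was called (adjusted p = 0.0169). Voom called the difference at both times, at 0.66 at 5 h (adjusted p = 0.000325) and 0.61 at 48 h (adjusted p = 0.000182). With the length trend removed Gapdh was called lower in CGR8 at 5 h, at -0.67 (adjusted p = 0.000135), as it was with library size alone, at -0.44 (adjusted p = 0.0123).

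Pgk1, the first enzyme of glycolysis to return ATP, was the 1 member called higher than in untreated cells. In CGR8 it had 220, 290 and 217 CPM untreated, 345, 389 and 284 CPM at 5 h, and 224, 256 and 224 CPM at 48 h. The highest untreated library, replicate B, lay above the lowest one at 5 h. On the log2 scale the change at 5 h was 0.43 ± 0.14 (SE; edgeR adjusted p = 0.0157), and 0.26 with the length trend removed. The call ended without untreated replicate A (adjusted p = 0.0766), untreated replicate C (adjusted p = 0.0777) or 5 h replicate B (adjusted p = 0.08). In NIH/3T3, Pgk1 had 827, 822 and 889.9 CPM untreated, 940.5, 927 and 899 CPM at 5 h, and 485, 453 and 447 CPM at 48 h. The 48 h libraries lay far under the rest. The change at 5 h did not pass (edgeR adjusted p = 0.283), though it was called higher, at 0.17, without the libraries apart in short transcripts (adjusted p = 0.0309), and that at 48 h was -0.90 ± 0.12 (edgeR adjusted p = 1.4e-05). Voom also called Pgk1 higher in NIH/3T3 at 5 h, at 0.17 (adjusted p = 0.00318).

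Eno1 and Pkm, the enolase and the pyruvate kinase of the last steps to pyruvate, were called lower in NIH/3T3 at 5 h. Eno1 had 1303, 1132 and 1344 CPM untreated, 935, 902 and 875 CPM at 5 h, and 1064, 1012 and 1028 CPM at 48 h. The groups did not overlap. The log2 fold change at 5 h was -0.44 ± 0.13 (SE; edgeR adjusted p = 0.0101), and without untreated replicate C it was -0.39 and not called (adjusted p = 0.0518). At 48 h Eno1 did not pass (edgeR adjusted p = 0.0571), but it was called lower, at -0.31 to -0.34, with DESeq2 (adjusted p = 0.0463), with voom (adjusted p = 5.7e-06) and without the libraries apart in short transcripts (adjusted p = 0.0273). It was -0.13 with the length trend removed (adjusted p = 0.294). Pkm had 2486, 2605 and 2925 CPM untreated, 2073, 2003 and 2001 CPM at 5 h, and 2520.2, 2365 and 2554 CPM at 48 h. The 5 h libraries were the lowest, and those at 48 h overlapped with the untreated ones. The log2 fold change of Pkm at 5 h was -0.37 ± 0.13 (edgeR adjusted p = 0.0313), and the call ended without any 1 of 5 libraries, untreated B or C or 5 h A, B or C (adjusted p from 0.0588 to 0.141). At 48 h Pkm did not pass (edgeR adjusted p = 0.411). In CGR8 neither gene was called at any time.

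Ldha, which turns pyruvate into lactate, fell in NIH/3T3 at 48 h, and the difference between the lines did not pass. It had 1314, 1303 and 1361 CPM untreated in NIH/3T3, 1201 to 1319.9 CPM at 5 h, and 967, 928 and 917 CPM at 48 h. The 5 h libraries overlapped with the untreated ones and those at 48 h did not. The change at 5 h did not pass (edgeR adjusted p = 0.82), and that at 48 h was -0.53 ± 0.14 (SE; edgeR adjusted p = 0.005), or -0.32 with the length trend removed. In CGR8, Ldha had 545, 745 and 527 CPM untreated, 806, 853 and 617 CPM at 5 h, and 516, 692 and 597 CPM at 48 h. It did not pass there at 5 h (edgeR adjusted p = 0.176) or at 48 h (edgeR adjusted p = 0.943), and the difference between the lines had an edgeR adjusted p of 0.259 at 5 h and 0.125 at 48 h. Without the libraries apart in short transcripts Ldha was called higher in CGR8 at 5 h, at 0.45 (adjusted p = 0.0256), and the difference at 48 h was 0.71 and called (adjusted p = 0.0038). Voom called Ldha higher in CGR8 at 5 h too, at 0.49 (adjusted p = 0.000831). It also called the difference, at 0.62 at 5 h (adjusted p = 0.000572) and 0.65 at 48 h (adjusted p = 9.1e-05).

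At 48 h, counted over the members, 7 of 10 were called in NIH/3T3, all lower, where 52.3% of all genes were called and 25.6% were called lower. The members' median log2 fold change was -0.54, against -0.01 over all genes tested. In CGR8 3 of 10 were called, all lower (Slc2a1, Pfkp and Aldoa), where 27.8% of all genes were called and 15.6% were called lower. The median there was -0.13, against -0.003 over all genes. Slc2a1 and Aldoa were called lower at 48 h in both lines. The comparisons at 5 h and 48 h share the untreated libraries, so their values for a gene are not independent.

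Between 5 h and 48 h, 4 members were called in NIH/3T3, where 65.6% of all genes were called, and 5 in CGR8, where 57.5% were called. In NIH/3T3 Hk2 was higher at 48 h, and Pgk1, Ldha and Aldoa were lower, by -1.06 ± 0.12, -0.49 ± 0.14 and -0.40 ± 0.14 (log2, SE). The edgeR adjusted p was 1.2e-06 for Pgk1, 0.00632 for Ldha and 0.016 for Aldoa. With the length trend removed the changes of Ldha (-0.21, adjusted p = 0.0784) and Aldoa (-0.04, adjusted p = 0.725) were not called, and the call for Aldoa also ended without 48 h replicate B (adjusted p = 0.0554). Removing the trend also made calls for Gapdh (0.55, adjusted p = 0.000495), Eno1 (0.33, adjusted p = 0.0096), Pkm (0.32, adjusted p = 0.0154) and Pfkl (-0.29, adjusted p = 0.0385). In CGR8 Hk2 and Pfkl were higher, and Aldoa, Pgk1 and Pfkp were lower. On the log2 scale the change was -0.95 ± 0.18 for Aldoa (edgeR adjusted p = 0.000332), -0.49 ± 0.14 for Pgk1 (edgeR adjusted p = 0.00668) and -0.29 ± 0.09 for Pfkp (edgeR adjusted p = 0.0124). With the length trend removed these were -0.55, -0.23 and -0.58, and Gapdh was called higher at 48 h, at 0.69 (adjusted p = 7.6e-05). The call for Pfkp ended without 5 h replicate B (adjusted p = 0.0774) or 48 h replicate B (adjusted p = 0.054). The rise of Pfkl, 0.28 ± 0.12, was close to the threshold (edgeR adjusted p = 0.0489) and ended under 11 settings, at adjusted p values up to 0.746, the latter at 0.05 (log2) with the length trend removed. Among these were the fits without 5 h replicate B or C or 48 h replicate B or C (adjusted p from 0.0665 to 0.211). Without 5 h replicate B, or without 48 h replicate B, 3 members were called, and the shares of all genes called in those fits are not given here.

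The difference between the lines in the response was tested directly, as the log2 fold change in CGR8 minus that in NIH/3T3 in 1 model of the 30 libraries. At 1 h 0 members differed by edgeR, where 0.16% of 17549 genes were called, and at 2 h 0 members, where 2.02% were called. At both times 0 members had an unadjusted p under 0.05 and DESeq2 called 0; voom called 0 at 1 h and 1 at 2 h. At 5 h 2 members differed, where 13.3% of all genes were called. Pfkl had a difference of 0.90 ± 0.18 (SE; edgeR adjusted p = 0.000838) and Hk2 one of 0.69 ± 0.17 (edgeR adjusted p = 0.00784), so both fell less in CGR8. The difference for Hk2 was 0.42 without CGR8 5 h replicate B (adjusted p = 0.139) and 0.50 with library size alone (adjusted p = 0.075), and was not called in either. The median difference over all genes tested was 0.13 at 5 h, and -0.06 with library size alone. Voom also called differences at 5 h for Aldoa (0.64), Eno1 (0.61), Pgk1 (0.57) and Pkm (0.46), with adjusted p from 0.000287 to 0.00514. The counts under voom, with the shares of all genes called, are given at the end.

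At 48 h 3 members differed between the lines, where 21.9% of all genes were called. The difference was 1.22 ± 0.18 (SE) for Pfkl (edgeR adjusted p = 1.0e-05) and 0.83 ± 0.19 for Pgk1 (edgeR adjusted p = 0.00199), both more positive in CGR8. It was -0.64 ± 0.14 for Pfkp (edgeR adjusted p = 0.00122), which fell in CGR8. Hk2 was called as well with the length trend removed, at 0.41 (adjusted p = 0.0283), and with voom, at 0.33 (adjusted p = 0.0188). Without untreated CGR8 replicate B 5 members were called at 48 h, and the share of all genes called in that fit is not given here.

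**Figure D4:**
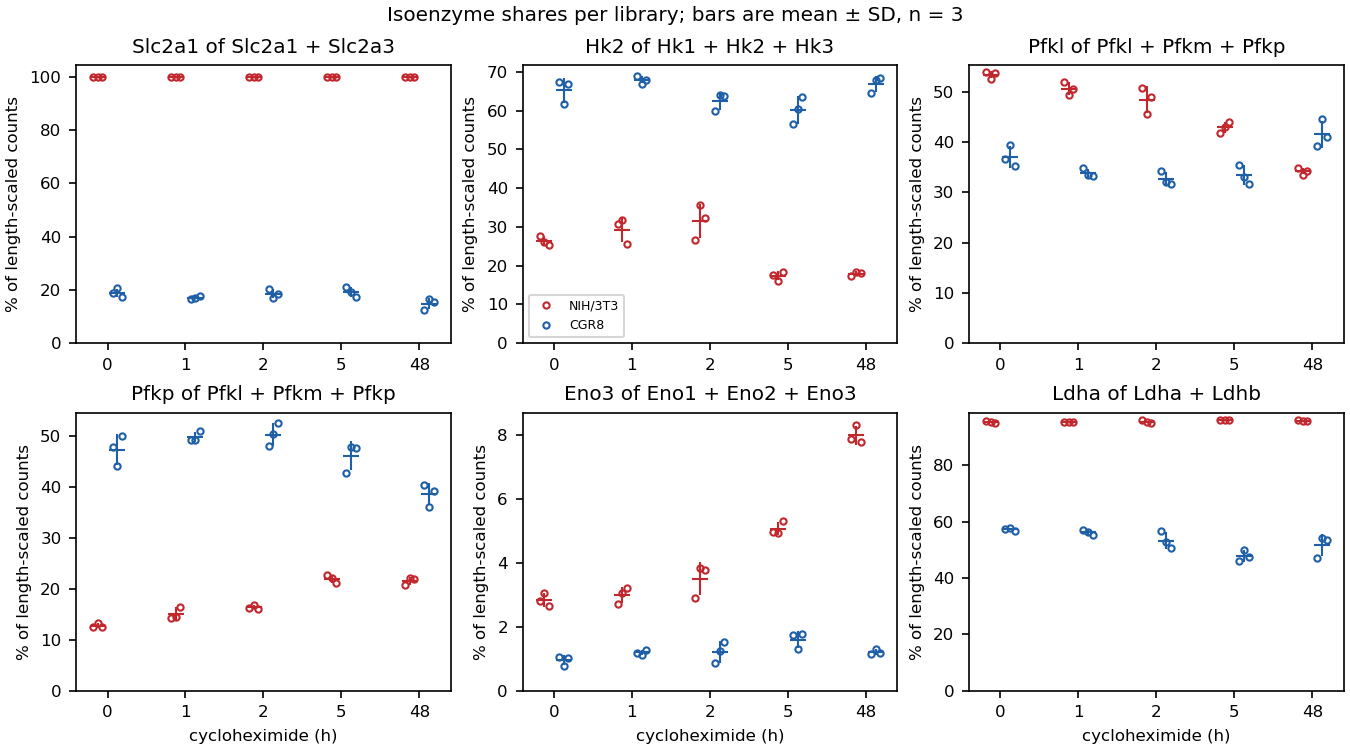
Share of 6 isoenzyme genes in the length-scaled counts of their family (y axis, %, from 0) at each time of cycloheximide (x axis, h, not to scale); circles are libraries of NIH/3T3 (red) and CGR8 (blue), and bars are mean ± SD of 3. In NIH/3T3 the share of Pfkl falls from 53.5% to 34.3% at 48 h and that of Eno3 rises from 2.84% to 7.98%.

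The isoenzyme shares moved with time, again as descriptions with no test. In NIH/3T3 Pfkl made up 54.0, 52.6 and 53.7% of phosphofructokinase in the untreated replicates, 41.9, 43.1 and 44.0% at 5 h, and 34.9, 33.6 and 34.4% at 48 h. The 3 groups did not overlap. Pfkm, the muscle-type gene of the family, became the largest at 48 h, with 44.2% ± 0.423 (SD, n = 3) against 33.8% ± 0.254 untreated, and Pfkp went from 12.7% ± 0.484 to 21.5% ± 0.762. In CGR8 the share of Pfkp was 47.2% ± 3.01 untreated and 38.6% ± 2.23 at 48 h, without overlap, and that of Pfkl was 37.1% ± 2.15 and 41.6% ± 2.73, with overlap. The share of Hk2 in NIH/3T3 was 26.4% ± 1.21 untreated, 17.4% ± 1.14 at 5 h and 17.99% ± 0.545 at 48 h, with both treated groups under the untreated one. Ldha made up 57.3% ± 0.436 of lactate dehydrogenase in untreated CGR8 and 47.8% ± 2.04 at 5 h, without overlap.

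The members did not move as one group. Over the 30 libraries, with log2 levels centred within each line, the correlation of a member with the mean of the other 9 was 0.87 for Eno1, 0.87 for Gapdh, 0.80 for Slc2a1 and 0.79 for Pfkl. It was 0.37 for Pgk1, 0.33 for Hk2 and 0.26 for Pfkp. These values are descriptions, since libraries of a group share their time and all members of a library share its depth and its make-up of short transcripts. Among 7214 genes outside the lists, those most like the mean of the members were Cfl1, which encodes the actin-severing protein cofilin (r = 0.97), and Slc25a1, the mitochondrial citrate carrier (r = 0.96).

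The other genes of the pathway were taken from a list of 24 further isoenzymes and steps, of which 13 were tested in NIH/3T3 and 18 in CGR8. In NIH/3T3 1 was called higher and 5 lower at 5 h, and 2 higher and 9 lower at 48 h. In CGR8 4 were called higher and 2 lower at 5 h, and 1 higher and 4 lower at 48 h. The list had a median of -0.29 at 5 h and -0.54 at 48 h in NIH/3T3, and of 0.09 and -0.20 in CGR8. Over all genes tested, the shares called higher and lower were 24% and 27.1% at 5 h and 26.7% and 25.6% at 48 h in NIH/3T3. In CGR8 they were 24.9% and 27.2% at 5 h and 12.2% and 15.6% at 48 h. Leading genes of this and the following lists are named only if their higher group averaged 10 CPM or more. Their values with the length trend removed are not given.

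Among genes at 10 CPM or more, Tpi1, which interconverts the triose phosphates, had the largest called fall of this list at 48 h in both lines. Its change was -1.09 ± 0.16 (log2, SE) in NIH/3T3 (edgeR adjusted p = 3.0e-05) and -1.22 ± 0.18 in CGR8 (edgeR adjusted p = 0.00013). Eno3, the muscle-type enolase, rose in NIH/3T3 by 0.43 ± 0.11 at 5 h and by 1.27 ± 0.11 at 48 h (edgeR adjusted p = 0.00321 and 1.3e-07). Pfkm fell there at 5 h by -0.84 ± 0.10 (edgeR adjusted p = 3.9e-06). In CGR8 at 5 h, among called genes at 10 CPM or more, Slc2a3, the transporter GLUT3, had the largest fall, at -0.82 ± 0.14. Ldhb had the largest rise, at 0.83 ± 0.14 (edgeR adjusted p = 0.000154 for Slc2a3 and 0.000139 for Ldhb).

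**Figure D5:**
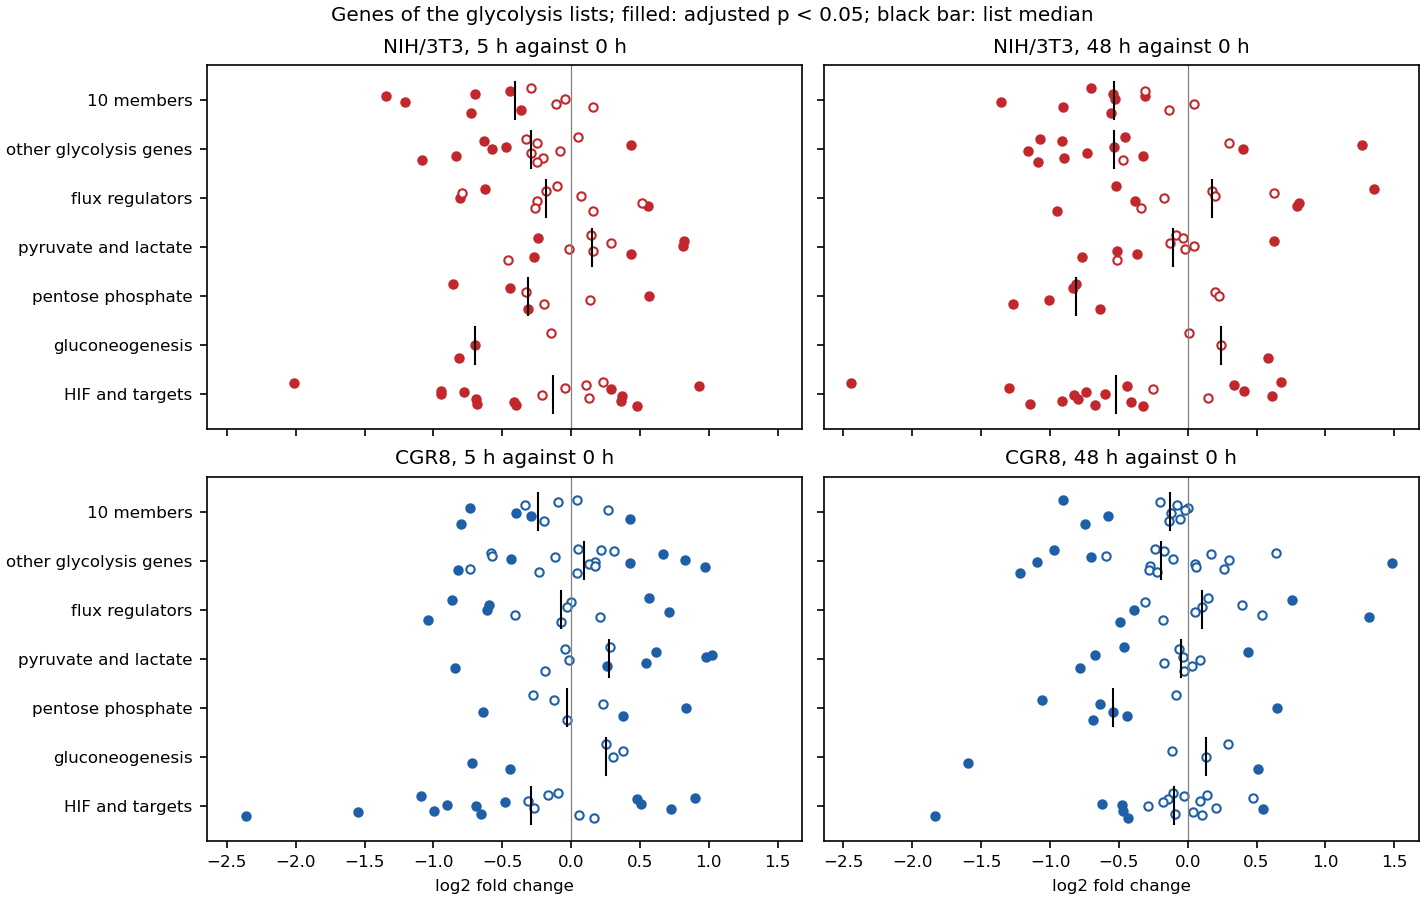
Log2 fold change (x axis) of the tested genes of each list (y axis) against untreated libraries at 5 h (left) and 48 h (right) in NIH/3T3 (top, red) and CGR8 (bottom, blue); each point is a gene, filled where the adjusted p was under 0.05, and black bars are list medians. At 48 h the list medians lie under 0 in both lines, except those of the flux regulators and of gluconeogenesis, which lie above 0 in both.

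Regulators of glycolytic flux, 11 genes that set fructose 2,6-bisphosphate or switch pyruvate dehydrogenase, moved in both directions. In NIH/3T3 1 was called higher and 2 lower at 5 h, and 3 higher and 3 lower at 48 h. In CGR8 the counts were 2 higher and 4 lower at 5 h, and 2 and 2 at 48 h. Of all genes, 51% and 52.3% were called in either direction at 5 h and 48 h in NIH/3T3, and 52.1% and 27.8% in CGR8. Pfkfb3, which makes fructose 2,6-bisphosphate, the activator of phosphofructokinase, rose by 0.56 ± 0.16 (log2, SE) in NIH/3T3 at 5 h (edgeR adjusted p = 0.009) and by 1.32 ± 0.18 in CGR8 at 48 h (edgeR adjusted p = 4.8e-05). Pfkfb1, of the same enzyme family as Pfkfb3, had the largest rise in CGR8 at 5 h, at 0.71 ± 0.13 (edgeR adjusted p = 0.000377). Pdk2, a kinase that inhibits pyruvate dehydrogenase, rose by 1.35 ± 0.13 in NIH/3T3 at 48 h (edgeR adjusted p = 5.7e-07). Tigar, a phosphatase that acts on fructose 2,6-bisphosphate, fell at 48 h in both lines, at -0.95 ± 0.12 in NIH/3T3 and -0.49 ± 0.12 in CGR8 (edgeR adjusted p = 7.4e-06 and 0.00799). Pdp2, a phosphatase that activates pyruvate dehydrogenase, fell at 5 h in both lines, at -0.81 ± 0.12 and -0.61 ± 0.11 (edgeR adjusted p = 5.1e-05 and 0.000345).

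Of the 11 genes for transport of pyruvate and lactate and for pyruvate dehydrogenase, 10 were tested. In NIH/3T3 3 were called higher and 2 lower at 5 h, and 1 higher and 3 lower at 48 h. In CGR8 5 were called higher and 1 lower at 5 h, and 1 higher and 3 lower at 48 h. The shares of all genes called at 5 h and 48 h were 51% and 52.3% in NIH/3T3, and 52.1% and 27.8% in CGR8. Slc16a1, the lactate carrier MCT1, was called lower in each line, both at 5 h and at 48 h. Its log2 fold change was -0.27 ± 0.09 (SE) and -0.77 ± 0.10 in NIH/3T3, and -0.85 ± 0.13 and -0.78 ± 0.13 in CGR8 (edgeR adjusted p = 0.0261, 6.7e-06, 7.7e-05 and 0.000347). Dld, the dihydrolipoamide dehydrogenase subunit, rose by 0.82 ± 0.09 in NIH/3T3 at 5 h, and at 48 h by 0.62 ± 0.09 there and by 0.44 ± 0.11 in CGR8 (edgeR adjusted p = 2.4e-06, 2.7e-05 and 0.00922). Mpc2, a subunit of the mitochondrial pyruvate carrier, had the largest rise in CGR8 at 5 h among called genes at 10 CPM or more, at 0.98 ± 0.14 (edgeR adjusted p = 4.0e-05).

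The pentose phosphate pathway, which branches off at glucose 6-phosphate and supplies NADPH and ribose, had 7 genes, all tested. At 5 h 1 was called higher and 3 lower in NIH/3T3, and 2 higher and 1 lower in CGR8. Of all genes, 51% and 52.1% were called in either direction at that time in the respective lines. At 48 h 5 were called lower in each line, with 0 called higher in NIH/3T3 and 1 in CGR8, where 25.6% and 15.6% of all genes were called lower in the respective lines. At 48 h the median of the list was -0.81 in NIH/3T3, and it was -0.54 in CGR8, against -0.009 and -0.003 over all genes tested. Taldo1, transaldolase, had the largest fall in NIH/3T3 at 48 h, at -1.27 ± 0.12 (log2, SE; edgeR adjusted p = 3.4e-07), and Pgd, the second NADPH-producing enzyme, in CGR8, at -1.06 ± 0.15 (edgeR adjusted p = 8.9e-05). Rpe, ribulose-phosphate epimerase, rose at 5 h by 0.56 ± 0.10 in NIH/3T3, and in CGR8 by 0.84 ± 0.10 at 5 h and 0.65 ± 0.10 at 48 h (edgeR adjusted p = 0.000264, 1.1e-05 and 0.000212). G6pdx, the entry enzyme, had the largest fall in NIH/3T3 at 5 h, at -0.86 ± 0.12 (edgeR adjusted p = 3.1e-05), and Rpia that in CGR8, at -0.64 ± 0.11 (edgeR adjusted p = 0.000244).

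Gluconeogenesis, the reverse route, had 7 genes, of which 3 were tested in NIH/3T3 and 5 in CGR8. At 5 h 2 were called lower in each line and 0 higher. At 48 h 1 was called higher and 0 lower in NIH/3T3, and 1 in each direction in CGR8. The shares of all genes called at 5 h and 48 h were 51% and 52.3% in NIH/3T3, and 52.1% and 27.8% in CGR8. Pcx, pyruvate carboxylase, changed direction in NIH/3T3, from -0.82 ± 0.12 (log2, SE) at 5 h to 0.58 ± 0.12 at 48 h (edgeR adjusted p = 4.7e-05 and 0.000632), and rose by 0.51 ± 0.12 in CGR8 at 48 h (edgeR adjusted p = 0.00491). Pck2, the mitochondrial phosphoenolpyruvate carboxykinase, fell in CGR8, at -0.72 ± 0.19 at 5 h and -1.59 ± 0.20 at 48 h (edgeR adjusted p = 0.00538 and 2.6e-05).

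The list of HIF genes and their targets outside glycolysis had 20 genes, of which 18 were tested in each line. In NIH/3T3 5 were called higher and 8 lower at 5 h, and 4 higher and 12 lower at 48 h, where 51% and 52.3% of all genes were called in either direction. In CGR8 4 were called higher and 8 lower at 5 h, and 1 higher and 5 lower at 48 h, where 52.1% and 27.8% of all genes were called. At 48 h the median of the list was -0.52 in NIH/3T3, and it was -0.10 in CGR8. Over all tested genes of the list, called or not, the lowest log2 fold change in NIH/3T3 was -2.01 at 5 h and -2.45 at 48 h. In CGR8 it was -2.36 and -1.84. The largest falls and rises named next are those among called genes at 10 CPM or more. Bnip3, a mitophagy receptor, had the largest fall in NIH/3T3 at 48 h, at -1.30 ± 0.11 (log2, SE; edgeR adjusted p = 1.1e-07), and Adm, the peptide hormone adrenomedullin, the largest rise there, at 0.68 ± 0.14 (edgeR adjusted p = 0.000599). At 5 h Egln3, a prolyl hydroxylase that marks HIF for decay, had the largest fall in NIH/3T3, at -0.94 ± 0.13, and Bhlhe40, a transcriptional repressor, the largest rise, at 0.93 ± 0.10 (edgeR adjusted p = 2.2e-05 and 2.4e-06). In CGR8 Ndrg1, a stress-responsive gene, had the largest fall at 5 h, at -1.55 ± 0.15, and Kdm3a, a histone demethylase, the largest rise, at 0.72 ± 0.14 (edgeR adjusted p = 1.2e-06 and 0.000595). At 48 h Epas1, the HIF-2 alpha subunit, had the largest fall in CGR8, at -0.48 ± 0.16, and Kdm3a the largest rise, at 0.54 ± 0.14 (edgeR adjusted p = 0.0349 and 0.00963).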

How the data were processed

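RNA was measured in 30 libraries of 2 lines. The deposited values are raw counts of reads for each gene, made by the authors; that they are counts was read from the table, which holds whole numbers with unequal totals. The submitters' processing notes name STAR, DESeq2 and GRCm39, with no role. The use of strand and the annotation release are not given in the sources used here. Symbols and transcript lengths were taken from GENCODE M21 on GRCm38, where 51880 of the 57186 identifiers (90.7%) had a symbol. Promoters come from RefSeq.

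Counts were tested in R 4.3.3 with edgeR 4.0.16 (quasi-likelihood F test, TMM factors, filterByExpr with a minimum count of 10 and total of 15). Each line was fitted alone for its times, and all 30 libraries together for differences between the lines. P-values were adjusted by Benjamini-Hochberg over all genes tested, and an adjusted p under 0.05 made a call. Depth was 18.2 to 30.5 M counts, so counting error is small for the members. Copies were transcripts of other genes that matched a member at 90% identity or more over at least 40% of the member and 50% of the copy. Alternatives were other scalings and filters, DESeq2 1.42.0, voom in limma 3.58.1, a replicate block and leaving out each library. Chosen after seeing the data were the removal of a length trend, the fits without 3 libraries and the adding of copies.

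From each list of related genes the text gives the counts called and names the called gene with the largest rise and the largest fall, at 5 h and 48 h in each line, among those at 10 CPM or more in the higher group. Where 1 gene led at several points, it is described once. The members and lists were chosen with earlier results of these data known. The tests were checked on simulated counts. The third gene under the rule for likeness is not reported here.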

Additional observations from a re-analysis of the deposited data

Results flagged for a closer look

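The change under cycloheximide differed between the lines in 5 cases among the members, each by the interaction term of edgeR's quasi-likelihood test with adjustment over all 17549 genes. At 5 h the log2 fold change in CGR8 minus that in NIH/3T3 was 0.69 for Hk2 (adjusted p = 0.00784) and 0.90 for Pfkl (adjusted p = 0.000838). At 48 h it was 1.22 for Pfkl (adjusted p = 1.0e-05), -0.64 for Pfkp (adjusted p = 0.00122) and 0.83 for Pgk1 (adjusted p = 0.00199). With the trend on transcript length removed the values at 5 h were 0.86 for Hk2 and 0.94 for Pfkl, and at 48 h 1.25 for Pfkl, -0.58 for Pfkp and 0.71 for Pgk1. The case of Hk2 at 5 h is the 1 of the 5 that lost its call when a library was left out.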

How the results depend on the processing

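Of 46 called changes of members, 31 kept their call under every alternative, 15 lost it under at least 1 and 0 reversed. Of 104 changes that were not called, 52 had the other sign under at least 1 alternative. With library size alone as the scale, 15 of 100 group levels moved by more than 1 SD. Counts of called members that moved by over 1.5 times were as follows, and the cause was not tested. With voom and sample weights they were 4 at 1 h, 7 at 2 h and 10 from 5 h to 48 h in NIH/3T3 (20.7%, 56.1% and 79.1% of all genes called), 3 at 2 h in CGR8 (28.9%), and 1, 8 and 6 for the difference between the lines at 2, 5 and 48 h (4.04%, 36.3% and 43.4%). With library size alone they were 3 at 2 h in CGR8 (20.4%) and 1 for the difference at 5 h (12%). Without a filter they were 3 from 5 h to 48 h in CGR8 (28.3%) and 5 for the difference at 48 h (9.58%). With the length trend removed the count at 2 h in NIH/3T3 was 2 (34.1%). Without the 3 libraries apart in short transcripts it was 2 at 2 h in each line (45.8% in NIH/3T3 and 26.9% in CGR8) and 5 for the difference at 48 h (25.9%). With only the compared groups it was 2 at 2 h and 10 from 5 h to 48 h in NIH/3T3 (33.2% and 80.1%), 0 at 2 h in CGR8 (6.4%) and 6 for the difference at 48 h (32.2%). Leaving out 1 library gave 1 to 5 at 2 h in NIH/3T3, and in CGR8 0 to 2 at 2 h, 3 to 6 at 5 h and 3 to 5 from 5 h to 48 h. For the difference it gave 1 to 2 at 5 h and 3 to 5 at 48 h. The shares of all genes called are not given for the fits that left out 1 library, nor for the replicate block below. Counts from these fits, also where given above, therefore do not show whether the members moved more than other genes.

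Replicate letters were shared by the groups. Same-letter libraries deviated together, with every correlation over 0.1, in NIH/3T3 at 1 h against 0 h alone (0.26, 0.20 and 0.42). With the replicate letter as a block, the called members at 1, 2, 5 and 48 h were 0, 1, 6 and 8 in NIH/3T3 and 0, 1, 5 and 3 in CGR8, and no count moved by over 1.5 times. The block made 1 call, Eno1 lower in NIH/3T3 at 48 h (adjusted p = 0.0473), and ended none.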
